A study of Mus musculus with 12 samples.

Results

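Monocytes of the mouse fall into a classical subset, which carries Ly6C and CCR2 on its surface, and a non-classical subset, which carries CX3CR1 and little Ly6C. The RNA levels of 8 monocyte identity genes were followed in the bone marrow of mice with leucopenia, treated or not with one of 2 drugs against it. The genes were taken by symbol from the deposited table and are 8 of its 34745 genes. Ly6c2, Ccr2, F13a1 and Fn1 (4 genes) were grouped as classical genes, Cx3cr1, Nr4a1 and Ace (3 genes) as non-classical genes, and Csf1r as a gene of both subsets. All 8 passed the filter on low counts in each of the 6 comparisons made.

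The libraries came from total femoral bone marrow cells of 12 male mice of the outbred ICR strain, 1 library per mouse and 3 mice per group. Normal mice had saline both as injection and by mouth. Model mice had intraperitoneal cyclophosphamide, which alkylates DNA and kills dividing cells, at a daily 80 mg/kg on days 5 to 7, and saline by mouth for 1 week. QJSB mice had the same injections and a daily 3 g/kg of the Qi-Jing-Sheng-Bai granule, a Chinese medicine formula, by mouth. Leucogen mice had the injections and, by mouth, leucogen at a daily 20 mg/kg, a medicine for low leucocyte counts. All mice given a drug also received cyclophosphamide, so neither drug was measured in healthy marrow. The age of the mice is not given in the sources used here.

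The table heads its columns Blank, Model, Stilbene and Positive with a number. Blank was read as normal and Positive as leucogen from the meaning of the words, and Stilbene as QJSB because that group was left. The reading was checked against the mean normalized counts that the authors list for their 3 comparisons. Under it 300 of 300 listed genes matched within 1% in each comparison, against at most 10 under any other reading, so the names of these groups rest in part on values.

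Classical monocytes leave the marrow through CCR2, a receptor for the chemokines CCL2 and CCL7. Some of them convert to non-classical monocytes, which patrol the vessel wall and depend on the nuclear receptor NR4A1. Monocytes arise from granulocyte-monocyte progenitors and depend on signals through CSF1R. Marrow progenitors and macrophages share part of these transcripts, so none of the 8 genes marks monocytes alone.

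Of the 8 genes, 6 have an entry among the RefSeq promoters used here, which run from 250 bases before the start of the gene to 50 bases after it in build GRCm38.p6. The Ccr2 and Cx3cr1 promoters hold none of the motifs marked below and are not printed. Ccr2 was called higher after cyclophosphamide, and Cx3cr1 lower in leucogen mice than in normal mice. The 4 promoters below each hold a marked motif. They belong to 2 classical genes called higher and 2 non-classical genes called lower in these same comparisons. They are written from 5′ to 3′ along the gene, and where a gene has 2 entries the first was taken. Capitals mark GAGGAA on either strand, a core bound by ETS factors such as PU.1, and TGCGTCA on either strand, which resembles the element bound by CREB. TGCGTCA was chosen after the Nr4a1 promoter had been read.
Ly6c2 promoter, chr15:75111922-75112221, minus strand: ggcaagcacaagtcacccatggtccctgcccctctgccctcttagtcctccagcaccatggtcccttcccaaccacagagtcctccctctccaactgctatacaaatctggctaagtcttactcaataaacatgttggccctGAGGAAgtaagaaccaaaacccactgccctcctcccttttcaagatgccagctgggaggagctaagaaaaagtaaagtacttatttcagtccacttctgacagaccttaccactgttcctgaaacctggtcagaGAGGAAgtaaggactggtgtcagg
F13a1 promoter, chr13:37050195-37050494, minus strand: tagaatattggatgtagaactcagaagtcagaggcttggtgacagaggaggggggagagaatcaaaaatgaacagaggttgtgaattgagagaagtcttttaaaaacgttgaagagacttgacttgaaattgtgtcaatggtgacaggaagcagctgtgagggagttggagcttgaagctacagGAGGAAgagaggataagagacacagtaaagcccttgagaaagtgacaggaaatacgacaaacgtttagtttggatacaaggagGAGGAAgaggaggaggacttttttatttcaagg
Nr4a1 promoter, chr15:101266596-101266895, plus strand: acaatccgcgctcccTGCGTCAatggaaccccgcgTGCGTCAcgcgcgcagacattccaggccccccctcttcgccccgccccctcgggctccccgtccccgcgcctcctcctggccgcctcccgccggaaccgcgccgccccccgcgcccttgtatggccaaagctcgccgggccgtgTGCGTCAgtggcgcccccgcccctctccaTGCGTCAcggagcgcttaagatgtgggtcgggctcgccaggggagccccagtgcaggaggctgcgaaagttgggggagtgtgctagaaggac
Ace promoter, chr11:105967698-105967997, plus strand: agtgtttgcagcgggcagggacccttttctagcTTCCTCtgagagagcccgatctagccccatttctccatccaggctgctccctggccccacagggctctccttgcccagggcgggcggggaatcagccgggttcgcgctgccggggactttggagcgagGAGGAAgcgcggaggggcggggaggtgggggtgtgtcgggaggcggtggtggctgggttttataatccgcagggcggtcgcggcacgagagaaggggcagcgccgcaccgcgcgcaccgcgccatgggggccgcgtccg
The Ly6c2, F13a1 and Ace promoters hold 2 copies of GAGGAA each, where 28.3% of the 32851 promoters in the table hold the motif at least once. The Nr4a1 promoter holds 4 copies of TGCGTCA, at 235, 215, 71 and 42 bases before the start, where 2.12% of promoters hold it. No marked copies overlap. The palindrome TGACGTCA, present in 1.79% of promoters, is in none of the 6, and the Ccr2 and Cx3cr1 windows hold none of these motifs. The matches describe letters in these windows and were not tested as binding sites.

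Library totals ran from 11172547 to 18545198 counts, and mice of one group differed by more than counting noise (chi-square over degrees of freedom, 10.2 to 99.6). Levels are counts scaled to library size (CPM), with TMM factors over the 12 libraries. A gene was called where edgeR's quasi-likelihood test gave a change of over 1.5 times in either direction and a Benjamini-Hochberg adjusted p under 0.05 over all genes tested. Every adjusted p is of this test unless another is named, and n = 3 mice in each group. RNA of whole marrow was measured, so fewer cells of a type and less RNA per cell cannot be told apart. The same holds for more cells of a type and more RNA per cell. Levels are shares of a library, so a rise may be only a larger share of a marrow that lost other transcripts. Library 1 of model and library 1 of QJSB stood apart from the other libraries of their groups. Their summed levels of 13 neutrophil markers were 4832 and 7376 CPM, against 11967 to 37994 CPM in the other libraries of model and QJSB. Their summed levels of 11 stromal markers were 802 and 993 CPM, against 210 to 291 CPM.

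The classical genes and Csf1r rose after cyclophosphamide alone. In model mice compared with normal mice, Ly6c2, Ccr2, F13a1, Fn1 and Csf1r were called higher and Nr4a1 was called lower, while Cx3cr1 and Ace had log2 fold changes of -1.16 and -1.0 and did not pass the test. These calls are 6 of 8 genes, 5 higher and 1 lower, where 35.1% of the 14752 genes tested were called (16.1% higher and 19% lower). In CPM, model and normal libraries did not overlap for 7 of the 8 genes, against 55.5% of genes tested. By the deposited FPKM, levels also scaled by transcript length, they overlapped for Cx3cr1 and Ace as well, through model 1. The share over all genes was not taken in FPKM. The median log2 fold change was 0.86 over the 8 genes and 0.02 over all genes. Without model 1 the count stayed at 6, and without normal 3 it fell to 3.

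In QJSB mice compared with model mice, none of the 8 genes was called, where 0% of the 14486 genes tested were called by edgeR. At an unadjusted p under 0.05 there were 723 of the 14486 genes, 1 of them among the 8 (Ccr2). That is about the share of genes that a threshold of 0.05 passes where no gene differs. DESeq2 called 8 genes and none of the 8. The replicate number was also used as a block, under a rule on correlations given below. With it, 18 genes were called and again none of the 8. With model 1 and QJSB 1 both left out, an alternative chosen after seeing the data, 23 genes were called and none of the 8. The libraries of QJSB and model overlapped for every one of the 8 genes, against 9.8% of genes tested whose libraries did not. The log2 fold changes were -0.50 ± 0.36 for Ly6c2, -0.38 ± 0.25 for F13a1, 0.20 ± 0.36 for Fn1 and -0.08 ± 0.22 for Csf1r (SE). For Cx3cr1 and Ace they were -0.56 ± 0.61 and -0.53 ± 0.84, errors as wide as the values, and Ccr2 and Nr4a1 follow below with their levels.

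In leucogen mice compared with model mice, 3 of the 8 genes were called and all 3 were lower. They were Csf1r, F13a1 and Fn1, where 23.1% of the 14184 genes tested were called (11.6% higher and 11.5% lower). For 3 genes the libraries did not overlap, against 46% of genes tested. The median log2 fold change was -0.89 over the 8 genes and -0.05 over all genes. Ly6c2 and Ccr2 had log2 fold changes of 0.02 ± 0.37 and 0.12 ± 0.32. Without any one of the 3 leucogen libraries 1 of the 3 calls was left, Csf1r, and without model 1 there were 2.

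Each drug group was also set beside normal mice, which they share with the model comparison. In QJSB mice 5 of the 8 genes were called, with Ly6c2, F13a1, Fn1 and Csf1r higher and Cx3cr1 lower, where 37.9% of 14817 genes were called (18% higher and 19.9% lower). In leucogen mice 6 were called, with Ly6c2, Ccr2 and F13a1 higher and Cx3cr1, Nr4a1 and Ace lower, where 37.7% of 14637 genes were called (17.8% higher and 19.8% lower). Between the drugs 3 genes were called, with Fn1 and Csf1r higher and Ccr2 lower in QJSB mice, where 24.6% of 14266 genes were called (12.9% higher and 11.7% lower). The libraries did not overlap for 7 genes between QJSB and normal, 6 between leucogen and normal and 5 between the drugs, against 58%, 61.8% and 48.8% of genes tested. The count of 5 for QJSB fell to 3 without normal 2, and the count of 3 between the drugs fell to 1 without leucogen 3.

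The study's own cutoff takes the same fold with an unadjusted P under 0.05. It called 7 of the 8 genes between model and normal, 1 between QJSB and model and 5 between leucogen and model, where 38.4%, 3.08% and 29.6% of genes passed it. Between QJSB and normal it called 6, between leucogen and normal 6 and between the drugs 4, where 41.6%, 39.4% and 30.6% passed.

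**Figure D1:**
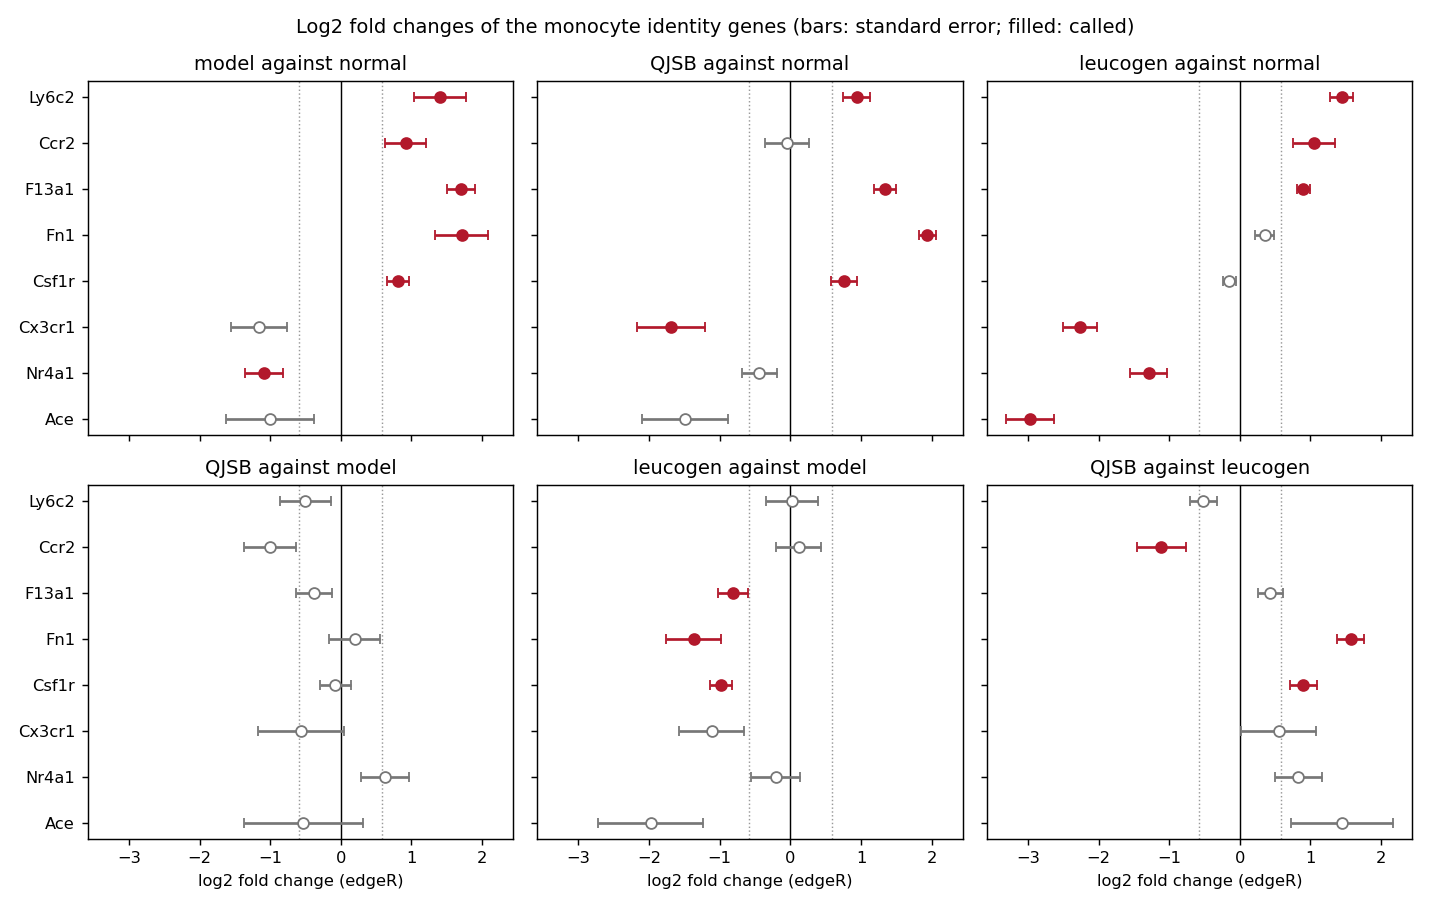
Log2 fold changes of the 8 genes in the 6 comparisons, first-named group minus second, from edgeR. Points are estimates, bars are standard errors, filled points were called and dotted lines mark a change of 1.5 times in either direction. Filled points number 6, 5 and 6 in the comparisons with normal, 0 and 3 in those with model, and 3 between the drugs.

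Ly6c2 encodes the Ly6C surface protein and lies on chromosome 15 at 75108158 to 75111970 on the minus strand of GRCm38, the build of the deposited coordinates. It measured 18.4, 17.2 and 13.7 CPM in normal mice and 63.8, 45.6 and 21.2 CPM in model mice. It measured 29.2, 38.1 and 26.4 CPM in QJSB mice and 53.2, 39.5 and 39.6 CPM in leucogen mice. Every cyclophosphamide-treated mouse lay above every normal mouse, and the model mice spread 3.01-fold among themselves. The log2 fold change over normal was 1.41 ± 0.37 in model (SE, adjusted p = 0.0198), 0.94 ± 0.19 in QJSB (adjusted p = 0.00562) and 1.44 ± 0.16 in leucogen (adjusted p = 4.9e-05). The call in model was lost without any 1 of the normal libraries or without model 2, with an adjusted p of up to 0.0675. In the order of means, leucogen and model overlapped, as did model and QJSB. QJSB libraries all lay below leucogen libraries, with -0.52 ± 0.19 on the log2 scale and no call (adjusted p = 0.0675). Ly6c2 shares much of its sequence with its paralogue Ly6c1, so the counting may have split reads between them and both values are uncertain. Ly6c1 was called higher over normal in model and leucogen mice, with 8.47 ± 1.93 CPM in normal, 16.5 ± 6.22 CPM in model and 17.8 ± 4.91 CPM in leucogen mice (SD). In QJSB mice Ly6c1 averaged 13.1 ± 2.45 CPM and was not called over normal (0.64 ± 0.23, SE, adjusted p = 0.0554).

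Ccr2 encodes the chemokine receptor that lets classical monocytes leave the marrow and lies on chromosome 9 at 124101950 to 124113557 on the plus strand. It measured 210, 273 and 173 CPM in normal mice and 419, 558 and 257 CPM in model mice. It measured 299, 125 and 202 CPM in QJSB mice and 549, 294 and 490 CPM in leucogen mice. Model and leucogen mice were high and QJSB mice lay at the normal level, with model 3 inside the normal range and QJSB 1 above leucogen 2. The log2 fold change over normal was 0.92 ± 0.29 in model (adjusted p = 0.0391) and 1.05 ± 0.30 in leucogen (adjusted p = 0.0301), against -0.05 ± 0.31 in QJSB (adjusted p = 0.901). QJSB mice were 1.11 ± 0.35 below leucogen mice on the log2 scale, at a log2 fold change of -1.11 (adjusted p = 0.0492). The value for QJSB against model was -1.0 ± 0.37, with an unadjusted p of 0.0267 and an adjusted p of 0.767. These calls were among the least stable of the 8 genes. The call in model was lost without normal 1, normal 3, model 1 or model 2 (adjusted p up to 0.11). In leucogen it was lost without normal 1, normal 3, leucogen 1 or leucogen 3 (up to 0.0903), and between the drugs without QJSB 2, QJSB 3, leucogen 1 or leucogen 3 (up to 0.145).

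F13a1 encodes the catalytic subunit of coagulation factor XIII, a transglutaminase made by monocytes and megakaryocytes, and lies on chromosome 13 at 36867178 to 37050244 on the minus strand. It measured 526, 522 and 470 CPM in normal mice and 2177, 1368 and 1363 CPM in model mice. It measured 1381, 1023 and 1410 CPM in QJSB mice and 959, 876 and 954 CPM in leucogen mice. Normal mice were lowest, leucogen mice lay between, and model and QJSB mice were highest and overlapped. Over normal the log2 fold change was 1.70 ± 0.20 in model (adjusted p = 3.5e-04), 1.34 ± 0.16 in QJSB (adjusted p = 5.1e-04) and 0.90 ± 0.09 in leucogen (adjusted p = 2.2e-05). Leucogen mice were lower than model mice, with -0.81 ± 0.21 (adjusted p = 0.0222). This call was lost without model 1, where the log2 fold change was -0.54, and without any 1 of the leucogen libraries (adjusted p up to 0.082). QJSB and leucogen libraries did not overlap, with 0.43 ± 0.18 and an adjusted p of 0.0972. The summed level of 10 megakaryocyte markers ran from 368 to 818 CPM in normal and from 386 to 971 CPM in model mice, and none of them was called between these groups.

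Fn1 encodes fibronectin, a matrix protein that classical monocytes and stromal cells express, and lies on chromosome 1 at 71585520 to 71653200 on the minus strand. It measured 555, 625 and 613 CPM in normal mice and 3259, 1138 and 1456 CPM in model mice. It measured 2281, 2191 and 2339 CPM in QJSB mice and 756, 613 and 888 CPM in leucogen mice. QJSB mice lay within 1.07-fold of one another, model mice spread 2.86-fold on either side of them, and leucogen mice were close to normal. Over normal the log2 fold change was 1.71 ± 0.38 in model (adjusted p = 0.00955) and 1.94 ± 0.12 in QJSB (adjusted p = 3.3e-05). In leucogen it was 0.35 ± 0.13 (adjusted p = 0.046), under the fold needed for a call. Leucogen mice were lower than model mice, with -1.37 ± 0.39 (adjusted p = 0.0375), and QJSB mice were higher than leucogen mice, with 1.57 ± 0.19 (adjusted p = 0.00285). The call against model was lost without model 3 or any 1 of the leucogen libraries (adjusted p up to 0.113). Model 1, with the highest Fn1 of all libraries, also had one of the highest sums of stromal markers, whereas QJSB 2 and QJSB 3 had 2191 and 2339 CPM of Fn1 beside stromal sums of 210 and 217 CPM. The part of stromal cells in the Fn1 values was not tested.

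**Figure D2:**
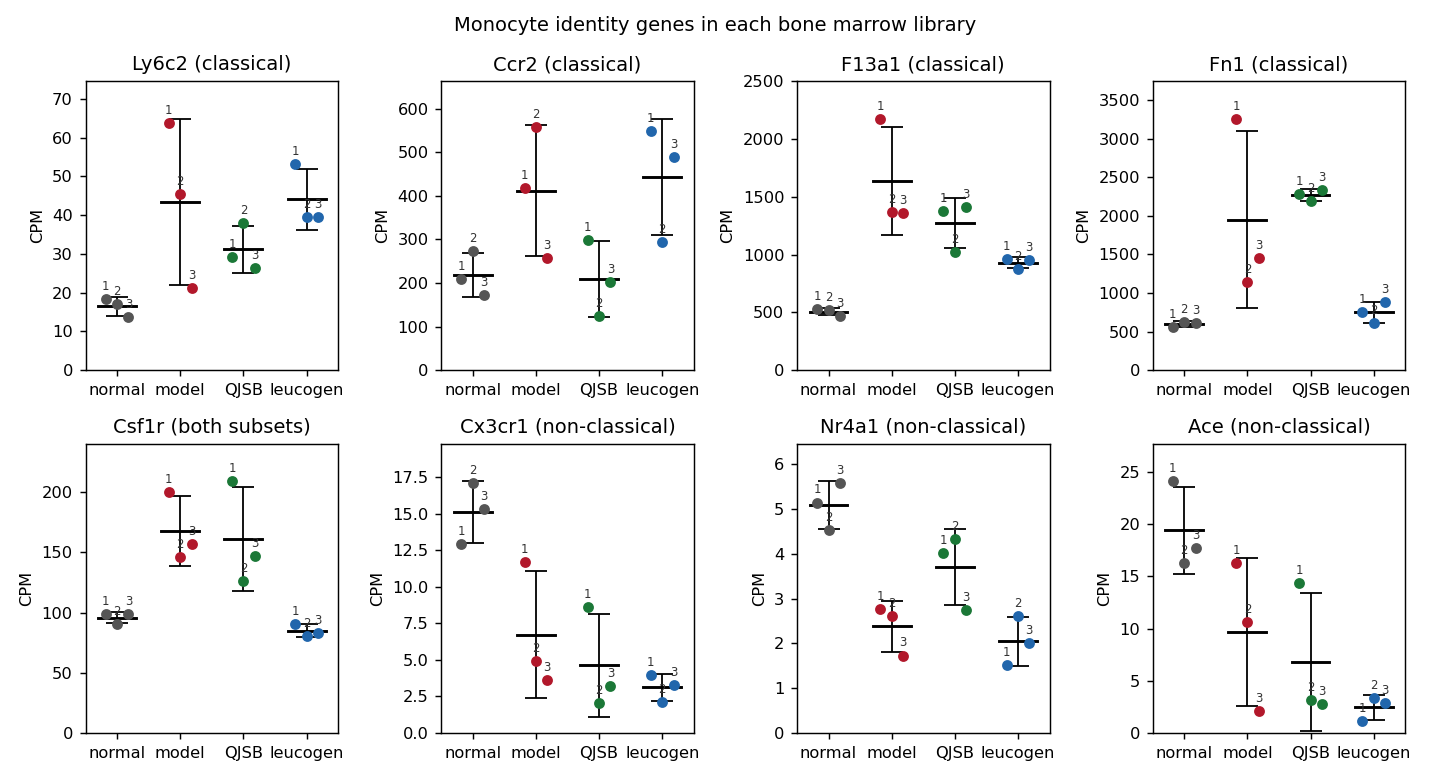
CPM of each of the 8 genes in the 12 libraries, by group; each point is 1 mouse with its library number, the thick line is the mean and the bar its SD, and every axis starts at 0. Fn1 and F13a1 average 2270 and 1271 CPM in QJSB mice, Ccr2 averages 209 CPM there, and Cx3cr1, Nr4a1 and Ace are highest in normal mice.

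Csf1r encodes the receptor for the growth factors CSF1 and IL-34 and lies on chromosome 18. It measured 98.9, 90.3 and 98.7 CPM in normal mice and 200, 146 and 157 CPM in model mice. It measured 209, 126 and 147 CPM in QJSB mice and 90.9, 80.7 and 83.0 CPM in leucogen mice. Model and QJSB mice were high and overlapped, and leucogen mice were at or under the normal level. Compared with normal, the log2 fold change was 0.81 ± 0.15 in model (adjusted p = 0.00273), 0.76 ± 0.19 in QJSB (adjusted p = 0.0144) and -0.15 ± 0.09 in leucogen (adjusted p = 0.191). Leucogen mice were lower than model mice, with -0.98 ± 0.16 (adjusted p = 0.00434), and QJSB mice were higher than leucogen mice, with 0.90 ± 0.19 (adjusted p = 0.0108). The call in QJSB was lost without normal 2 (adjusted p = 0.0619) and without QJSB 1, where the log2 fold change was 0.52, and that between the drugs was lost without leucogen 3 (adjusted p = 0.0589). Its call in model against normal held without any 1 library.

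Of the genes for the receptors' ligands, Csf1 was measured well and most of the others had few counts. Of 7 genes listed for the ligands of CSF1R, CCR2 and CX3CR1, 1 was tested between model and normal and none was called in any comparison. Csf1 measured 13.6, 14.2 and 13.1 CPM in normal and 7.68, 10.8 and 25.3 CPM in model mice, with a log2 fold change of 0.11. Ccl2, which encodes a CCR2 ligand, had at most 0.138 CPM in any library, and Cx3cl1 and Il34 had group means of at most 0.542 and 0.827 CPM. A difference in Ccl2 was not detectable at this depth.

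The means of the 3 non-classical genes were lower in each treated group than in normal mice. Cx3cr1 encodes the fractalkine receptor and lies on chromosome 9 at 119901616 to 120068283 on the minus strand. The span given in the table covers several other genes, and whether counting used the strand is not given in the sources used here, so its counts may hold reads of them. It measured 12.9, 17.1 and 15.3 CPM in normal mice and 11.7, 4.89 and 3.64 CPM in model mice. It measured 8.59, 2.03 and 3.23 CPM in QJSB mice and 3.97, 2.10 and 3.26 CPM in leucogen mice. In CPM every treated mouse lay below every normal mouse, with model 1 and QJSB 1 the closest. By the deposited FPKM, model 1 (1.91) lay above normal 1 (1.83), so this separation depends on the scaling. The log2 fold change over normal was -2.26 ± 0.24 in leucogen (adjusted p = 3.4e-05) and -1.69 ± 0.48 in QJSB (adjusted p = 0.024). In model it was -1.16 ± 0.40 with an adjusted p of 0.0511, which missed the threshold, DESeq2 gave an adjusted p of 0.01, and without model 1 it was -1.81 (adjusted p = 8.3e-04). The call in QJSB was lost without any 1 of the normal libraries or without QJSB 3 (adjusted p up to 0.0778). Of 11 listed markers of NK and T cells, 10 were called lower and 1 higher, Nkg7, between model and normal (median log2 fold change -2.38). Compared with normal, 9 were called lower in QJSB and 8 in leucogen mice, with 1 called higher in each. The part of NK and T cells in the Cx3cr1 values was not tested.

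Nr4a1 encodes an orphan nuclear receptor that non-classical monocytes need and that is also an immediate early gene, and it lies on chromosome 15 at 101266846 to 101274792 on the plus strand. It measured 5.15, 4.53 and 5.59 CPM in normal mice and 2.77, 2.62 and 1.73 CPM in model mice. It measured 4.03, 4.34 and 2.74 CPM in QJSB mice and 1.51, 2.61 and 2.02 CPM in leucogen mice. Model and leucogen mice were low, and QJSB mice lay between them and normal mice, with QJSB 3 at the level of model 1. Compared with normal, the log2 fold change was -1.09 ± 0.27 in model (adjusted p = 0.013) and -1.29 ± 0.26 in leucogen (adjusted p = 0.00233), and -0.44 ± 0.25 in QJSB did not pass (adjusted p = 0.192). The call in model was lost without normal 3 (adjusted p = 0.055). QJSB mice had values of 0.62 ± 0.34 against model (adjusted p = 0.767) and 0.83 ± 0.33 against leucogen (adjusted p = 0.0904). These levels rest on 19 to 81 counts per library. Of 10 other immediate early genes tested between model and normal, 3 were called, all lower, among them Egr1 (-3.03) and Dusp1 (-2.49), and the summed level of the list was 299 to 473 CPM in normal and 239 to 279 CPM in model mice. The other 7 were not called, 4 of the 10 had a log2 fold change above 0, and the median was -0.20. Whether Nr4a1 moved with other immediate early genes was not tested.

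Ace encodes angiotensin-converting enzyme, which non-classical monocytes and endothelial cells carry, and lies on chromosome 11 at 105967945 to 105989964 on the plus strand. It measured 24.1, 16.3 and 17.7 CPM in normal mice and 16.3, 10.6 and 2.14 CPM in model mice. It measured 14.4, 3.18 and 2.74 CPM in QJSB mice and 1.11, 3.34 and 2.88 CPM in leucogen mice. Leucogen mice were low, with a spread of 3-fold, while model mice spread 7.62-fold and QJSB mice 5.25-fold, in both groups with library 1 nearest to normal, and model 1 lay just below normal 2. By the deposited FPKM, model 1 (2.70) lay above normal 2 (2.36) and normal 3 (2.59). The log2 fold change over normal was -2.97 ± 0.34 in leucogen (adjusted p = 1.4e-04). It was -1.0 ± 0.62 in model (adjusted p = 0.245) and -1.49 ± 0.61 in QJSB (adjusted p = 0.0845), neither of them called. Without QJSB 1 the value for QJSB was -2.70 (adjusted p = 3.7e-05). Leucogen against model gave -1.98 ± 0.75 (adjusted p = 0.0906), and without model 3 it gave -2.43 (adjusted p = 0.01). The summed level of 10 endothelial markers was 148 to 163 CPM in normal, 127 to 169 CPM in model, 140 to 167 CPM in QJSB and 95.4 to 128 CPM in leucogen mice. Most of it was Pecam1, with means of 107 CPM in normal and 72.6 CPM in model mice. The sum thus hides that 5 of the 10 were called higher and none lower between model and normal (median log2 fold change 0.62). The part of endothelial cells in the Ace values was not tested.

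Per kilobase of the longest transcript, the mean levels of the classical genes and Csf1r were above those of the non-classical genes in every group. In normal mice F13a1 stood highest at 128 ± 7.87 CPM per kb (SD), followed by Fn1 at 71.9 ± 4.5, Ccr2 at 38.2 ± 8.85, Csf1r at 20.4 ± 1.05 and Ly6c2 at 6.14 ± 0.909 CPM per kb. Ace at 3.95 ± 0.848, Cx3cr1 at 3.36 ± 0.468 and Nr4a1 at 1.99 ± 0.208 CPM per kb came last, and Ace and Cx3cr1 did not differ beyond their spread. In leucogen mice Ace came last, at 0.498 ± 0.239 CPM per kb, below Cx3cr1 at 0.693 ± 0.21 and Nr4a1 at 0.801 ± 0.216 CPM per kb, and the 3 levels overlapped within their SDs. With the union of exons as the length, Fn1 passed F13a1 in QJSB mice, and Ccr2 passed Fn1 and Ly6c2 passed Csf1r in leucogen mice. Ace then passed Nr4a1 in QJSB mice and Cx3cr1 passed Nr4a1 in leucogen mice. By the deposited FPKM, Csf1r stood above Ccr2 in normal (16.1 against 15.3 FPKM) and QJSB mice (27.8 against 15.2 FPKM).

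The balance between the genes was also taken, as the ratio of their counts within a library. Ccr2 over Cx3cr1 was 16.3, 16.0 and 11.3 in normal mice, 36.0, 114 and 70.8 in model mice, 34.8, 61.5 and 62.5 in QJSB mice and 138, 140 and 150 in leucogen mice. Thus normal mice were lowest and leucogen mice highest, with no overlap with any other group. F13a1 alone also kept normal and leucogen mice apart from every other group, with leucogen mice in between. Among all single genes tested, leucogen libraries did not overlap those of normal for 61.8%, model for 46% and QJSB for 48.8%. Fn1 over Ccr2 was 2.64, 2.29 and 3.54 in normal mice, 7.77, 2.04 and 5.66 in model mice, 7.62, 17.6 and 11.6 in QJSB mice and 1.38, 2.08 and 1.81 in leucogen mice. Ccr2 over Csf1r ran from 1.75 to 3.03 in normal, 1.64 to 3.83 in model, 0.993 to 1.43 in QJSB and 3.65 to 6.04 in leucogen mice. QJSB mice had the lowest values of this ratio and leucogen mice the highest but for model 2, which lay above leucogen 2. Fn1 over F13a1 was 1.65 to 2.14 in QJSB mice and at most 1.5 in every other mouse. Ace over Csf1r was 0.18 to 0.244 in normal mice and at most 0.0812 in every treated mouse. Other ratios formed separated less or repeated this. Ly6c2 over Ccr2 was 0.063 to 0.0876 in normal and 0.0817 to 0.152 in model mice. F13a1 over Csf1r was 8.7 to 10.9 in model and 10.6 to 11.5 in leucogen mice. Cx3cr1 over Csf1r was 0.13 to 0.189 in normal and at most 0.0582 in every treated mouse. The ratios were formed after the levels had been seen and are given with no test. They share the counts of the genes above, and no share over other gene pairs was taken.

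**Figure D3:**
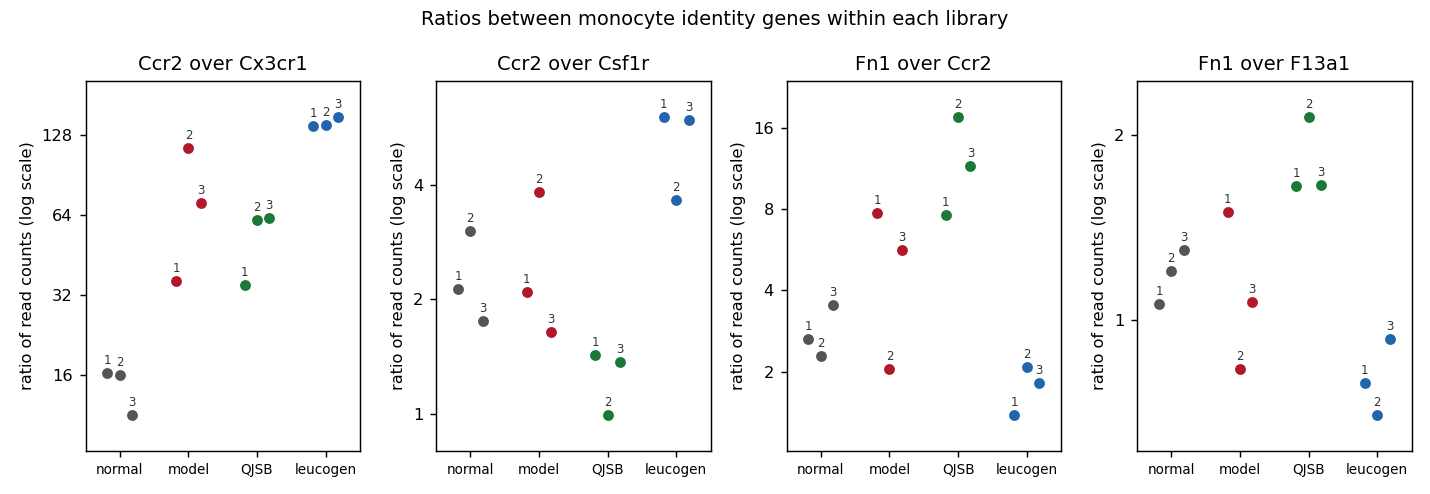
Ratios of read counts between pairs of the 8 genes within each library, on log axes, by group; each point is 1 mouse with its library number. Ccr2 over Cx3cr1 lies between 138 and 150 in leucogen and between 11.3 and 16.3 in normal mice, and Fn1 over F13a1 is at least 1.65 in QJSB mice only.

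Other genes of classical monocytes moved in both directions. Of 22 companions of the classical subset tested between model and normal, 10 were called higher and 2 lower, with a median log2 fold change of 0.82 against 0.02 over all genes. F10, which encodes coagulation factor X, rose by 3.29 ± 0.25 on the log2 scale, and Vcan, which encodes the proteoglycan versican, by 2.48 ± 0.35. The 2 that fell were Lyz2 (-0.90) and Ccr1 (-0.75), which encode lysozyme and a chemokine receptor and are also strong in neutrophils. In QJSB mice compared with model none of the 22 was called by edgeR (median -0.22). In leucogen mice compared with model 6 were called higher and 7 lower (median -0.46), with Lyz2 at 1.93 and the integrin gene Itgam at 1.41, and with the Fc receptor gene Fcgr1 at -1.40 and the lectin gene Clec4a1 at -1.38. Beside normal mice, 9 were called higher and none lower in QJSB (median 0.87) and 13 higher and 1 lower in leucogen (median 0.85). The summed level of the list was 11716 to 12774 CPM in normal, 10735 to 16429 CPM in model, 8759 to 22751 CPM in QJSB and 23150 to 29886 CPM in leucogen mice, most of it Chil3 and Lyz2.

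Companions of the non-classical subset also held genes called in both directions. Of 18 tested between model and normal, 3 were called higher and 6 lower, with a median of -0.49. Ear2, which encodes a ribonuclease, fell by 2.63 on the log2 scale and Cd300e, which encodes an activating receptor, by 2.34. Apoc2 (1.80), an apolipoprotein gene, and Cebpb (1.68) rose. None of 17 tested was called in QJSB mice compared with model (median 0.14). Leucogen against model gave 3 higher and 2 lower (median -0.08), with Treml4 at 2.02, a receptor gene, and Ceacam1 at 1.64, an adhesion gene that granulocytes express as well. Beside normal mice, 5 were called higher and 8 lower in QJSB (median -0.38) and 4 higher and 7 lower in leucogen (median -0.34), where Adgre4, an adhesion receptor gene, stood at -2.92 and Ear2 at -2.77. Treml4 averaged 22.5 CPM in leucogen mice against 17.6 CPM in normal mice.

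Among 12 transcription factor genes of the monocyte lineage tested between model and normal, 5 were called higher (median 0.53). Spi1, which encodes PU.1, measured 63.4, 63.3 and 63.9 CPM in normal and 96.7, 99.0 and 155 CPM in model mice, with a log2 fold change of 0.89. Cebpa (1.57), Cebpb (1.68), Klf4 (1.28) and Stat3 (0.90) were the others that rose. Irf8, which monocyte progenitors need, was not called, with 188, 209 and 219 CPM in normal and 314, 170 and 176 CPM in model mice. Nr4a2, a paralogue of Nr4a1, was not called (0.17). In leucogen mice compared with model, Runx1 (0.61) was called higher and Klf4 (-0.69), Cebpa (-0.79) and Irf5 (-1.08) lower, and none of 12 was called in QJSB mice compared with model.

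The paralogues of the 8 genes followed no single direction. Between model and normal 4 of 11 were called higher and 5 lower, and Flt3, a receptor gene of progenitors related to Csf1r, rose by 1.92 on the log2 scale. In leucogen mice compared with model Flt3 was at -1.87. Ly6g, a neutrophil gene of the Ly6 family, was at -3.05 in model against normal and at 3.87 in leucogen against model. Ccr3, an eosinophil receptor gene near Ccr2, was at -4.98 in model against normal.

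Markers of other marrow cells moved with the same groups, and their part in the results on the 8 genes was not tested. Of 10 markers of granulocyte-monocyte progenitors 8 were called higher and none lower between model and normal, with Ctsg at 3.66 and Prtn3 at 3.46, both genes of granule proteases. Their summed level was 1317 to 1569 CPM in normal, 7134 to 10203 CPM in model, 8852 to 9670 CPM in QJSB and 4030 to 5183 CPM in leucogen mice. Like Fn1 and F13a1, it was high in model and QJSB mice and lower in leucogen mice. The neutrophil sum was 19696 to 23294 CPM in normal, 4832 to 20046 CPM in model, 7376 to 37994 CPM in QJSB and 49544 to 59226 CPM in leucogen mice. Of 15 macrophage markers 2 were called higher and 8 lower between model and normal, with Gpnmb at 6.37 and Trem2 at 2.43, C1qc at -1.94 and Timd4 at -1.94. The macrophage sum was 590 to 666 CPM in normal, 316 to 473 CPM in model, 361 to 444 CPM in QJSB and 290 to 334 CPM in leucogen mice. Of 8 dendritic cell markers tested between model and normal, 4 were called lower, among them Zbtb46 (-3.07) and Cd209a (-2.88), and 1 higher, Flt3, which progenitors express as well. The dendritic cell sum, Flt3 included, was 134 to 184 CPM in normal, 113 to 234 CPM in model, 135 to 175 CPM in QJSB and 65.8 to 68.4 CPM in leucogen mice. The stromal sum was 364 to 472 CPM in normal and 202 to 244 CPM in leucogen mice. The sum of B and plasma cell markers was 1128 to 1138 CPM in normal and at most 80.8 CPM in any treated mouse, and that of erythroid markers 15255 to 18694 CPM in normal and at most 1933 CPM in any treated mouse. No marker list had a gene at 0 in all 12 libraries.

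**Figure D4:**
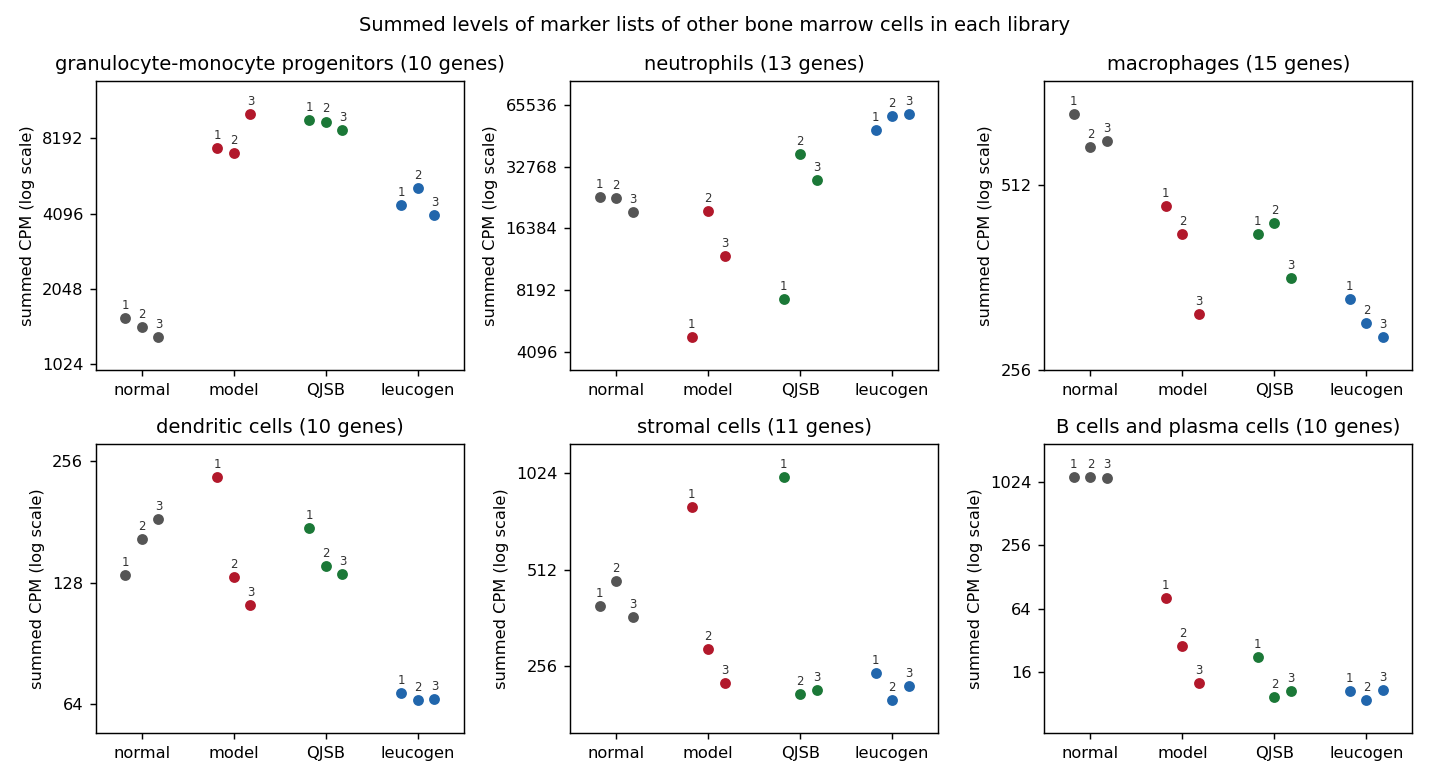
Summed CPM of 6 marker lists in the 12 libraries on log axes, by group; each point is 1 mouse with its library number. Progenitor markers are at 1317 to 1569 CPM in normal and 7134 to 10203 CPM in model mice, neutrophil markers are highest in leucogen mice, and model 1 and QJSB 1 have the highest stromal sums.

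Over the 12 libraries, the genes whose log2 CPM was most like that of each of the 8 were sought among 9952 genes by Pearson's r. These values describe likeness over libraries that share group, composition and scaling. Ly6c2 was most like its paralogue Ly6c1 (r = 0.910) and Ms4a6c (0.886). Ccr2 was most like Trps1 (0.953) and S100a4 (0.952), and Csf1r like Clasp2 (0.973) and Tspan3 (0.967). F13a1 was most like Cyp4v3 (0.971) and Cyp4f16 (0.970), and Fn1 like Flt3 (0.964) and Map3k6 (0.946). Cx3cr1 was most like Plxdc1 (0.976) and Ms4a4b (0.962), Nr4a1 like Nfia (0.943) and Txnip (0.930), and Ace like Fzd7 (0.948) and the macrophage gene Adgre1 (0.944). Among the 8 genes themselves, F13a1 and Fn1 had an r of 0.85 and Cx3cr1 and Ace also 0.85. Csf1r and Cx3cr1 had an r of 0.11 over the 12 libraries and of 0.90 once group means were removed. Library 1 was the highest of its group for both genes in model, QJSB and leucogen mice.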

How the data were processed

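Total RNA of femoral bone marrow cells from 12 mice was depleted of ribosomal RNA and sequenced from strand-specific libraries. The authors cleaned the reads (Seqtk) and aligned them to GRCm38 (mm10) by HISAT2. The deposited table holds, per gene and library, a raw read count, and an FPKM that the authors computed from fragments, transcript length and total fragments. The counting program and annotation version are not given in the sources used here. The table has 24 value columns, of which 0 were left unused. Of its 34745 gene IDs, 34267 are in GENCODE M21, which gave the transcript lengths, and 11677 genes have no count.

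Counts of each pair of groups were fitted with edgeR 4.0.16 in R 4.3.3 (TMM, filterByExpr, robust glmQLFit, glmQLFTest). Log2 CPM used a prior count of 2. Replicates are separate mice. Depth bounds the counting error alone, and mice of a group differed by more than that. Promoters came from RefSeq. FPKM served for an alternative test and a second order of levels, since for some genes the lengths it implies are far from those of M21 (Ccr2 5.68 times Nr4a1 against 2.24 for the longest transcripts). DESeq2 1.42.0, limma 3.58.1 on log2(FPKM + 0.1) where the mean FPKM was 0.1 or more, other normalizations, no filter, all 12 libraries in one fit, a replicate block and each library left out in turn were the alternatives. The fits were tested on simulated counts.

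The 8 genes and the hand-written lists were chosen with earlier results of these data known, and support nothing by themselves. Text names the 8 genes, listed ligands, transcription factors and paralogues, the 2 largest rises and falls among called genes of other lists with a mean CPM of at least 1, the first 3 markers of each list, and per gene the 2 most correlated genes with a mean CPM of at least 5. Replicate numbers were taken to pair libraries where every same-numbered pair correlated over 0.1 after subtraction of group means. This held for QJSB and model (0.453, 0.136 and 0.103) and QJSB and leucogen (0.174, 0.157 and 0.11), from correlations alone. Differently numbered pairs ran from -0.302 to 0.184 for QJSB and model, which reaches above 0.136 and 0.103. For QJSB and leucogen they ran from -0.18 to 0.0188. The rule was not met for leucogen and model (0.125, -0.103 and -0.0218), so a true pairing of the mice is not established. The metabolomics, blood counts, cytokines, RT-qPCR and pathway analyses of the study were not analysed here. For 1 gene of the lists, its own result is not reported here.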

Additional observations from a re-analysis of the deposited data

How the results depend on the processing

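Over the 8 genes and 6 comparisons, 564 of the values under an alternative kept direction and call, 40 lost and 12 gained a call, and 16 turned, each of these from a value that was not called. With each library left out in turn, the number of the 8 genes called ran from 3 to 6 for model against normal, 1 to 4 for leucogen against model, 3 to 5 for QJSB against normal, 5 to 6 for leucogen against normal and 1 to 3 for QJSB against leucogen, and was 0 throughout for QJSB against model. The other alternatives kept these counts within 1.5 times. Scaling by total counts moved the median over all genes from 0.02 to 0.14 for model against normal and from -0.05 to -0.22 for leucogen against model. In that last comparison it turned Ly6c2 to -0.16 and Ccr2 to -0.06, and limma on FPKM gave -0.02 and -0.03. With a library left out, these values turned to -0.28 and -0.10 (model 3) and to -0.13 and -0.05 (leucogen 1). In the same way, QJSB against model turned for Csf1r (0.07 without model 1, 0.08 without QJSB 2), Cx3cr1 (0.10) and Ace (0.08) without model 1, and Fn1 (-0.07) without model 2. Ccr2 turned to 0.13 and 0.21 in QJSB against normal without normal 2 or QJSB 2, and Cx3cr1 to -0.27 in QJSB against leucogen without QJSB 1. The cause was not tested. Leaving out a library, these values ran in QJSB against model from -0.31 to 0.08 for Csf1r, -1.37 to 0.10 for Cx3cr1, -0.07 to 0.79 for Fn1 and -1.72 to 0.08 for Ace, in leucogen against model up to 0.42 for Ly6c2 and 0.44 for Ccr2, in QJSB against normal from -0.42 to 0.21 for Ccr2 and in QJSB against leucogen from -0.27 to 0.93 for Cx3cr1.

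Without a filter Ccr2 lost its call in model against normal (adjusted p = 0.0601), leucogen against normal (0.0786) and QJSB against leucogen (0.09), and Fn1 in leucogen against model (0.0886). Genes called between QJSB and model numbered 0 by edgeR and limma, 8 by DESeq2, 18 with the replicate block, 3 without QJSB 1 and 23 without model 1 and QJSB 1. Leaving out leucogen 1 or 3 lowered the genes called from 3275 to 1724 or 1239 for leucogen against model, and from 3511 to 2157 or 1544 for QJSB against leucogen. In the comparisons that met the rule on replicate numbers, the block changed no call on the 8 genes. In the others, which did not meet it, the block called Cx3cr1 in model against normal (0.0493) and Ace in QJSB against normal (0.0155). Ccr2 lost its call in leucogen against normal (0.115).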
